A study of Mus musculus with 4 samples.

Results

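The claudin family was followed in somitic gastruloids of the mouse, which are elongating aggregates grown from embryonic stem cells that form presomitic tissue and somites. The members were the rows of the count tables with the symbols Cldn1, Cldn3, Cldn4, Cldn5, Cldn6, Cldn7, Cldn9, Cldn10, Cldn12 and Cldn23, which makes 10 of the 35 claudin rows and 10 of the 24831 genes listed. The cells were the E14 triple reporter line, and in both groups the endogenous Zeb2 gene carried an HA epitope and the FKBP12F36V degron, so the controls were tagged as well. Gastruloids of both groups were started from 300 sorted cells per well, were given 3 μM CHIR99021 (a compound that turns on the WNT pathway) from 48 h on, and were embedded in 10% Matrigel at 96 h. In the treated group 100 nM dTAG-13, a small molecule that makes the tagged protein a substrate for degradation, was added at 72 h and again at 96 h. The other group is titled untreated, and the growth protocol gives DMSO as its control. Each group held 2 libraries, numbered 1 and 2. The labels do not say whether the line was 1 clone or whether the 2 libraries of a group were separate cultures. The p-values therefore describe the spread between these libraries alone, and that spread may be technical. No untagged line given dTAG-13 was analysed here.

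Claudins are membrane proteins that line up in strands between neighbouring epithelial cells and form the tight junction, where most of them seal the space between cells and some form channels for ions. Their tails bind scaffold proteins of the ZO family inside the cell. ZEB2 is a zinc finger repressor that binds E-box-like sequences containing CACCT and is known for silencing epithelial genes when cells become mesenchymal.

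Between 11491330 and 12716172 reads per library were counted in genes, and values are given as CPM (counts per 1e6 counts of a library's size, scaled with TMM factors). One count corresponded to 0.0753 to 0.0889 CPM. The share of reads outside genes was 24.1% to 35.7% and was highest in untreated replicate 1. Markers of somites and presomitic mesoderm were present in all libraries, with 9 of 9 tested and a summed level of 363 and 273 CPM in controls and 220 and 140.0 CPM after dTAG-13. Of these 9, 8 were lower with dTAG-13, 6 of them without overlap (11.9% of all genes), with a median log2 fold change of -0.72, and neither edgeR nor DESeq2 called any. Zeb2 mRNA itself was at 98.2 and 164 CPM in controls and 102 and 108 CPM after dTAG-13, for a log2 fold change of -0.32 ± 0.25 (SE). That mRNA value does not check the labels, since dTAG-13 acts on the protein.

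Because ZEB2 is known to bind CACCTG, the members' promoters were searched for those letters on either strand, in windows from 250 bases before to 50 bases after each annotated start (RefSeq sequences, GRCm38.p6). Of the 8 members with a window, 4 held the motif and 4 did not, where 22.6% of all 27025 genes with a window and 21.5% of the 10723 genes with a window that were tested held it. Some genes have several windows and so more places to hold it. The 8 members had 12 windows, of which 4 held the motif, against 20.2% of all 32851 windows. The 4 with the motif were Cldn3, Cldn4, Cldn6 and Cldn7, and the 4 without it were Cldn1, Cldn5, Cldn10 and Cldn12. Cldn9 and Cldn23 had no window, and neither did Cldn8, a claudin outside the set. Each match is printed within 30 bases of its gene's strand, with the motif in capitals. Whether the motif bears on the levels was not tested.
Cldn3, after the start: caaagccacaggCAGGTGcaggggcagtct
Cldn4, before the start: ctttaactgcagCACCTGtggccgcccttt
Cldn4, after the start: cctttcttgttgCAGGTGcaggcaggaaag
Cldn6, before the start: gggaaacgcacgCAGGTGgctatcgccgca
Cldn6, after the start: aatcttagcagtctcttttgCAGGTGagcc
Cldn7, farther from the start: tttcttcctcttCACCTGgacgaggagggg
Cldn7, nearer the start: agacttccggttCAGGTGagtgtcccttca

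The Cldn3 match lay at chr5:134986233-134986262 on the plus strand, with the motif 31 bases after the start. In Cldn4 the matches lay at chr5:134946931-134946960 and chr5:134946906-134946935 on the minus strand, 14 bases before and 11 bases after the start. In Cldn6 they lay at chr17:23679260-23679289 and chr17:23679385-23679414 on the plus strand, 93 bases before and 40 bases after the start at 23679365. The Cldn6 stretch before that start overlaps an annotated Cldn6 exon in GENCODE M21. In Cldn7 both lay before the downstream of its 2 annotated starts, 97 and 57 bases away, at chr11:69965312-69965341 and chr11:69965352-69965381 on the plus strand. The window of the upstream Cldn7 start held none. CAGGTG is CACCTG read on the opposite strand. The shorter CACCT, which every CACCTG contains, was in the windows of 6 of the 8 members and of 55.2% of all genes. Letters in a window are a description and do not show that a protein binds there.

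The Cldn4 promoter places the motif next to the start. Its 250 bases before the start (chr5:134946935-134947184, minus strand) are printed with the one match upstream of the start in capitals.
Cldn4 promoter: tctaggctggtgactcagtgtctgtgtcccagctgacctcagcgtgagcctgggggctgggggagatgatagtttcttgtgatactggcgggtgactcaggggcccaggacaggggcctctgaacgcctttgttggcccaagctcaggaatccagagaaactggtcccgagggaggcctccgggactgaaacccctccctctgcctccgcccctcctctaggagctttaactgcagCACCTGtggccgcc

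Set against untreated gastruloids, Cldn6, Cldn7, Cldn3 and Cldn4 were 2.53- to 3.05-fold higher with dTAG-13, Cldn9 was 1.77-fold higher, Cldn12 had a log2 fold change of 0.007 and Cldn5 one of -0.43. Of the 10 members 8 had enough counts to be tested, and Cldn10 and Cldn23 did not. In the 8 tested, the median log2 fold change was 1.08, where the median over all 13602 genes tested was 0.004. In 4 of the 8 both dTAG-13 libraries lay above both untreated libraries, against 14.4% of all genes tested, and in 0 of the 8 they lay below, against 11.9%. Within a replicate number, 6 of the 8 were higher with dTAG-13 in both numbers, against 27.7%, and 1 was lower in both, against 23.9%.

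No member passed an adjusted p of 0.05 in edgeR's quasi-likelihood test, in which 0 of all genes passed (0%) and the smallest adjusted p was 0.760. At an unadjusted p under 0.05, 2 of the 8 members and 479 of all genes (3.52%) stood out in edgeR. DESeq2 gave no adjusted p for Cldn1 and Cldn5, and genes without one were counted as not called. On the same counts it called 2 of the 8, Cldn6 and Cldn7, both higher. Of all genes it called 0.191% as higher, 0.103% as lower and 0.294% in either direction. This count of 2 fell to 0 when either untreated replicate 1 or dTAG-13 replicate 2 was left out, to 1 when untreated replicate 2 was, and went to 3 when dTAG-13 replicate 1 was. The median log2 fold change of the 8 in edgeR was 0.65 or 1.43 when untreated replicate 1 or 2 was left out, and 1.49 or 0.34 when dTAG-13 replicate 1 or 2 was.

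**Figure D1:**
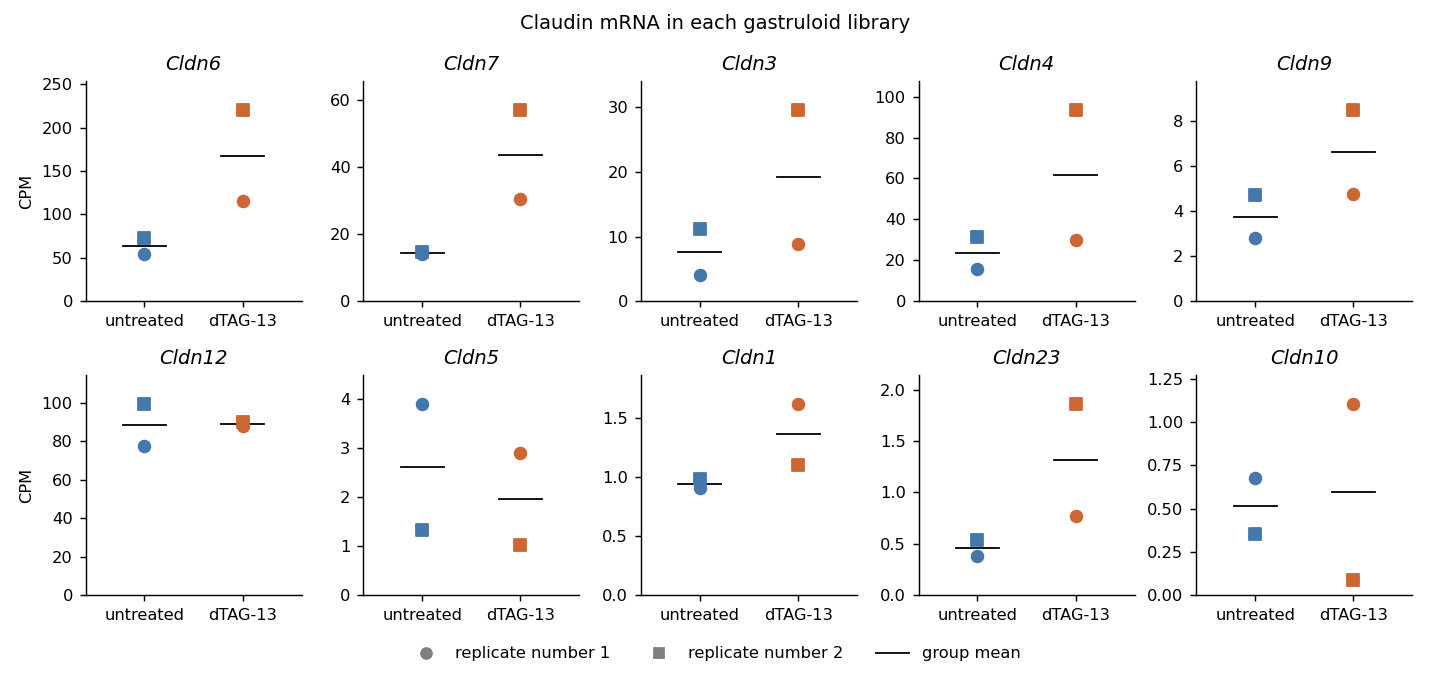
CPM of the 10 members (y axis, from 0, a scale of its own for each gene) in the 2 untreated and 2 dTAG-13 libraries (x axis), with circles for replicate number 1, squares for number 2 and a line at each group mean. Both dTAG-13 points lie above both untreated points for Cldn6, Cldn7, Cldn9, Cldn1 and Cldn23, while the groups overlap for Cldn3, Cldn4, Cldn12, Cldn5 and Cldn10.

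Cldn6 (chromosome 17, 23679348 to 23682446 in RefSeq on GRCm38.p6, as for all gene positions here), a claudin of early embryonic epithelia, was at 54.6 and 72.9 CPM in untreated replicates 1 and 2 and at 115 and 220.5 CPM in dTAG-13 replicates 1 and 2. Every dTAG-13 value exceeded every untreated one, and the highest was dTAG-13 replicate 2. The group means were 63.8 ± 12.9 and 167.8 ± 74.6 CPM (SD, n = 2 in each group). That is a log2 fold change of 1.40 ± 0.36 (SE). The adjusted p was 1.00 in edgeR and 0.00665 in DESeq2. The ratio of dTAG-13 to untreated was 2.11 in number 1 and 3.03 in number 2.

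Cldn7 (chromosome 11, 69964779 to 69967886), which binds the adhesion molecule EPCAM as well as other claudins, had 14.0 and 14.7 CPM in the untreated libraries and 30.4 and 57.1 CPM after dTAG-13. The untreated pair lay close together, and the dTAG-13 pair lay apart from it and from each other. Its log2 fold change was 1.61 ± 0.32, with an adjusted p of 0.774 in edgeR and 0.00487 in DESeq2. The ratio was 2.17 in number 1 and 3.89 in number 2. Without dTAG-13 replicate 2 the log2 fold change was 1.07 for Cldn7 and 0.83 for Cldn6 in edgeR.

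Cldn6 and Cldn7 varied 4.04- and 4.08-fold over the libraries, and their counts were set against each other within each library. Cldn7 made up 20.4% and 16.8% of their joint counts in untreated replicates 1 and 2 (95% exact binomial intervals 17.8% to 23.2% and 14.5% to 19.2%) and 20.9% and 20.6% in dTAG-13 replicates 1 and 2 (19.0% to 22.9% and 19.2% to 21.99%). All 4 intervals overlap, those of untreated replicate 2 and the dTAG-13 libraries only near their bounds. Such intervals cover counting error only, because reads that carry no molecular identifier need not be independent molecules.

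Cldn3 and Cldn4 lie 39.3 kb apart on chromosome 5 (134986214 to 134987476 and 134945123 to 134946934) and are both known as receptors of a bacterial enterotoxin. Cldn4 had 15.7 and 31.2 CPM in controls and 30.001 and 93.6 CPM after dTAG-13. Cldn3 had 4.06 and 11.2 CPM in controls and 8.86 and 29.6 CPM after dTAG-13. For both genes untreated replicate 2 was above dTAG-13 replicate 1, so the groups overlapped, while the dTAG-13 library was the higher one in each number.

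The ratio of dTAG-13 to untreated was 1.91 in number 1 and 3.0 in number 2 for Cldn4, and 2.18 and 2.64 for Cldn3. The number itself went with differences as large, since Cldn4 was 1.98-fold and Cldn3 2.76-fold higher in number 2 than in number 1 among untreated libraries, and 3.12-fold and 3.34-fold among dTAG-13 libraries. The log2 fold changes were 1.40 ± 0.74 for Cldn4 and 1.34 ± 0.81 for Cldn3, and the adjusted p was 1.00 for both in edgeR and in DESeq2. Without dTAG-13 replicate 2 the values were 0.34 and 0.20.

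Over the libraries Cldn4 varied 5.95-fold and Cldn3 7.29-fold, and the pair was compared in the same way. Cldn3 made up 20.5% and 26.4% of the pair's counts in the untreated libraries (95% exact binomial intervals 15.8% to 25.9% and 22.5% to 30.6%) and 22.8% and 24.04% in the dTAG-13 libraries (19.0% to 26.9% and 21.9% to 26.3%). All 4 intervals overlap one another, and a difference in proportion was not tested.

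Cldn9 (chromosome 17, 23682584 to 23684026), known for its part in hearing, lies end to end with Cldn6, which is read from the opposite strand, with 137 bases between the 2 genes. It had 2.78 and 4.71 CPM in controls and 4.77 and 8.48 CPM after dTAG-13, which separates the groups by a margin of less than 1 count. The log2 fold change was 0.83 ± 0.45 (edgeR adjusted p = 1.00), and the ratio was 1.71 in number 1 and 1.80 in number 2. The number itself went with a difference nearly as large. Cldn9 was 1.69-fold higher in number 2 than in number 1 among untreated libraries and 1.78-fold among dTAG-13 libraries. Cldn9 made up 4.85% and 6.07% of the joint counts of Cldn6 and Cldn9 untreated (95% exact binomial intervals 3.44% to 6.62% and 4.58% to 7.87%) and 3.98% and 3.71% with dTAG-13 (3.02% to 5.14% and 3.02% to 4.49%). The intervals of untreated replicate 2 and dTAG-13 replicate 2 do not overlap, and all other pairs of intervals do. The nearest tested neighbour of Cldn6 on its other side was Tnfrsf12a, a receptor of the TNF family 1.78 kb away. Tnfrsf12a had 5.87 and 6.40 CPM in controls and 6.82 and 13.2 CPM after dTAG-13, for a log2 fold change of 0.70 ± 0.38 (edgeR adjusted p = 1.00).

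Cldn12 (chromosome 5, 5505015 to 5514976), a widely expressed claudin that lacks the usual tail for binding ZO scaffolds, did not share this pattern. It had 77.6 and 99.7 CPM in controls and 88.2 and 89.9 CPM after dTAG-13, and both dTAG-13 values lay between the untreated ones. Its log2 fold change of 0.007 ± 0.16 (edgeR adjusted p = 1.00) had the other sign with RLE, upper quartile or no scaling factors, and leaving out untreated replicate 1 or 2 gave -0.18 or 0.20.

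Cldn5 (chromosome 16, 18776847 to 18778262), the main claudin of blood vessel endothelium, had 3.91 and 1.33 CPM in controls and 2.90 and 1.02 CPM after dTAG-13. The groups overlapped, and the low values were those of number 2 in both groups. Number 2 was at 0.341 of number 1 untreated and at 0.351 with dTAG-13, whereas dTAG-13 was at 0.741 and 0.764 of untreated within numbers 1 and 2. The log2 fold change was -0.43 ± 0.72 (edgeR adjusted p = 1.00) and turned to 0.54 when untreated replicate 1 was left out and to 0.11 when dTAG-13 replicate 2 was.

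The 10 endothelial markers, all tested, had a summed level of 211 and 56.5 CPM in controls and 163 and 63.4 CPM after dTAG-13, and none was at 0 in all libraries. Of the 10, 9 had a log2 fold change below 0, where 50.9% of all genes had one above 0. In number 2, however, Kdr, Esam, Egfl7 and Sox18 of these 9 were higher with dTAG-13. Cdh5, the cadherin of endothelium, had 16.6 and 2.58 CPM in controls and 12.4 and 1.19 CPM after dTAG-13. Pecam1 went the other way, with 18.7 and 18.0 CPM in controls and 23.2 and 25.3 CPM after dTAG-13. It was the 1 marker whose groups did not overlap, where 14.4% of all genes lay above and 11.9% below. Kdr, at 103 and 12.8 CPM in controls and 80.3 and 15.4 CPM after dTAG-13, was the largest part of the sum in number 1. The summed level, like Cldn5, was low in number 2, and there it was higher with dTAG-13. The part of these cells in the level of Cldn5 was not tested. In bulk libraries fewer cells of a type and less RNA per cell cannot be told apart.

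The 3 remaining members were rare. Cldn1 (chromosome 16, 26356645 to 26371839), a claudin of the skin barrier, had 12 and 11 counts untreated and 19 and 13 with dTAG-13, or 0.903 and 0.978 CPM against 1.62 and 1.10 CPM. Its groups did not overlap, but the difference was a few counts and the log2 fold change was 0.53 ± 0.52 (edgeR adjusted p = 1.00). Cldn23 (chromosome 8, 35824709 to 35826559) had 5 and 6 counts untreated and 9 and 22 with dTAG-13, or 0.376 and 0.533 CPM against 0.767 and 1.87 CPM. Both treated values were the higher ones, yet too few libraries reached the count minimum for a test. Cldn10 (chromosome 14, 118787871 to 118874525), a claudin that forms ion channels in kidney and glands, had 9 and 4 counts untreated and 13 and 1 with dTAG-13, with no shared direction in the 2 numbers.

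**Figure D2:**
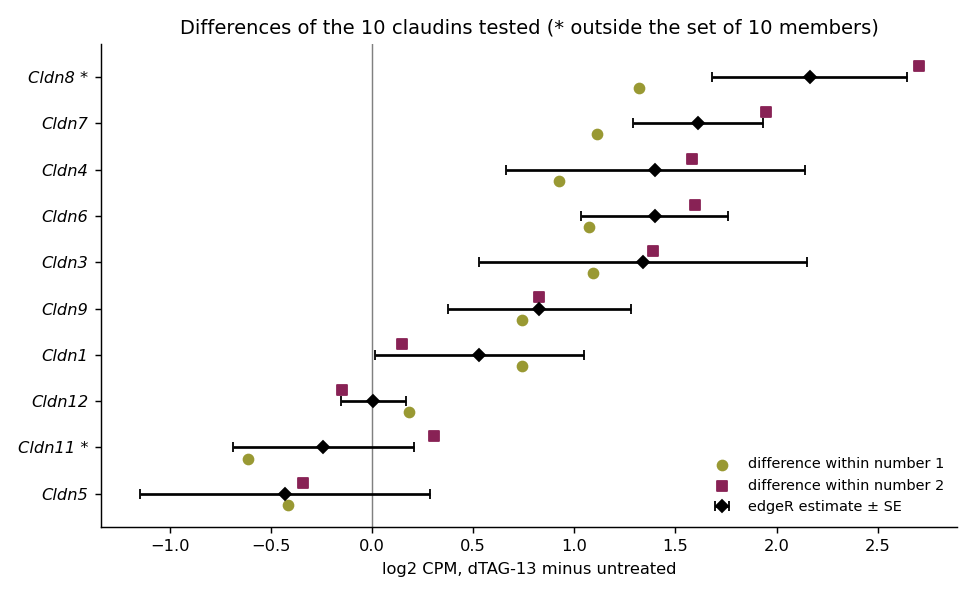
Log2 difference between dTAG-13 and untreated (x axis) for the 10 claudins tested (y axis), of which 8 are members and those with a star are not. Diamonds with bars are edgeR estimates ± SE, circles and squares are differences of log2 CPM within replicate numbers 1 and 2. Cldn7, Cldn6, Cldn4 and Cldn3 lie to the right of 0 in both numbers, with wider bars for Cldn4 and Cldn3, while Cldn12 sits at 0.007.

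Of the 25 claudins outside the set, 3 reached 10 counts in a library and 2 were tested. Cldn8 (chromosome 16, 88560826 to 88563183), a sealing claudin of the kidney collecting duct, was also higher with dTAG-13. It had 1.88 and 1.33 CPM in controls and 4.94 and 9.59 CPM after dTAG-13, and the groups did not overlap. Its log2 fold change was 2.16 ± 0.48, with an adjusted p of 0.774 in edgeR and 0.136 in DESeq2. Cldn11 (chromosome 3, 31149920 to 31164326), a claudin of myelin and testis, had 5.57 and 2.84 CPM in controls and 3.58 and 3.56 CPM after dTAG-13, for a log2 fold change of -0.24 ± 0.45 (edgeR adjusted p = 1.00) that was 0.31 without untreated replicate 1. Cldn15, a channel-forming claudin of the gut, had 10 and 2 counts untreated and 8 and 5 with dTAG-13. The other 22 claudins had at most 4 counts in any library, and 14 of them had 0 counts in all 4.

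Levels were compared between genes as RPKM, the CPM divided by the length of a gene's exons in kilobases (GENCODE M21, GRCm38). Summed over the 13 claudins named here, the level was 82.4 and 111 RPKM untreated and 144 and 279 RPKM with dTAG-13. Cldn6 ranked first in all 4 libraries, with 31.7 and 42.4 RPKM untreated and 66.9 and 128 RPKM with dTAG-13. Cldn12 ranked second in both untreated libraries and in dTAG-13 replicate 1, at 19.7, 25.3 and 22.4 RPKM, and 5th in dTAG-13 replicate 2, at 22.8 RPKM.

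Cldn4 and Cldn7 were close to each other, and their order changed between libraries. Cldn4 had 8.66 and 17.2 RPKM untreated and 16.5 and 51.5 RPKM with dTAG-13, and Cldn7 had 9.48 and 9.93 RPKM untreated and 20.6 and 38.7 RPKM with dTAG-13. Cldn3 followed at 3.23 to 23.5 RPKM and Cldn9 at 1.93 to 5.88 RPKM. Cldn5, Cldn8 and Cldn11 came next, between 0.566 and 4.07 RPKM, and Cldn1, Cldn10, Cldn15 and Cldn23 were at or below 1.01 RPKM.

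As a share of the summed claudin RPKM, Cldn12 was 23.9% and 22.9% in the untreated libraries and 15.5% and 8.19% in the dTAG-13 libraries. Cldn6 was 38.5% and 38.2% untreated and 46.3% and 45.9% with dTAG-13. These lengths are from an annotation that may differ from the one used for counting, which the sources used here do not name, so an order between genes of similar RPKM is uncertain.

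**Figure D3:**
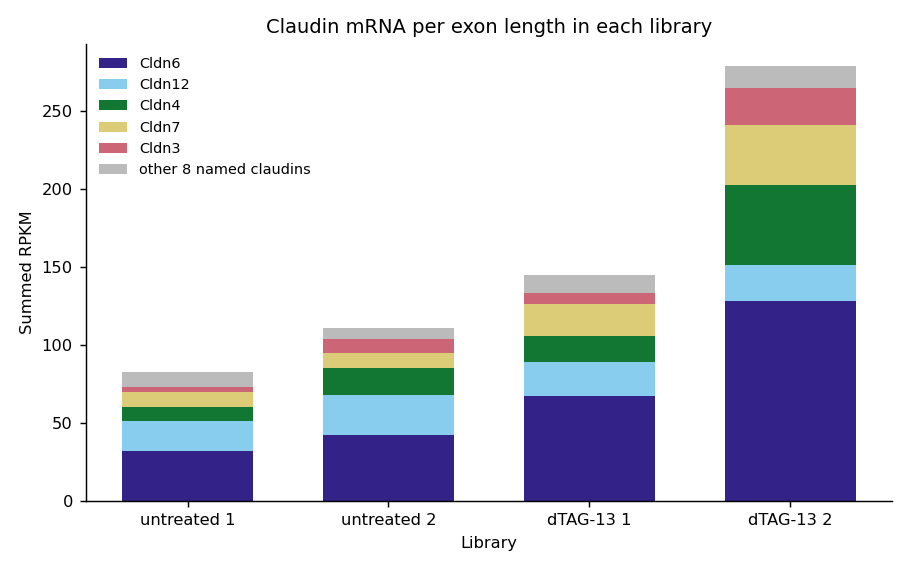
Summed RPKM (y axis, from 0) of the 13 claudins named here in each of the 4 libraries (x axis), stacked by gene with the 8 rarer ones in grey. The columns reach 82.4 and 111 RPKM untreated and 144 and 279 RPKM with dTAG-13, and the Cldn12 layer keeps nearly the same height in all of them.

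Other tight junction genes were read from lists fixed for this report, and 0 members of any list passed in edgeR over all genes. Of 13 membrane partners of claudins, 10 were higher and 3 lower with dTAG-13, with a median log2 fold change of 0.34. Both dTAG-13 libraries lay above both untreated ones for 5 of the 13, where 14.4% of all genes did, and below for 1, where 11.9% did. Marveld2, the tricellulin of corners where cells meet, had 11.4 and 13.7 CPM in controls and 21.8 and 34.95 CPM after dTAG-13 (log2 fold change 1.18 ± 0.27, edgeR adjusted p = 0.790). Ildr1 and Ildr2 are related proteins that recruit tricellulin to those corners, and they differed in direction. Ildr1 had 5.64 and 5.78 CPM in controls and 9.80 and 14.8 CPM after dTAG-13, while Ildr2 had 21.8 and 32.8 CPM in controls and 6.65 and 11.5 CPM after dTAG-13. Ildr2 was the 1 gene of the 3 tight junction lists that DESeq2 called, where it called 0.103% of all genes as lower (log2 fold change -1.59 ± 0.34 in edgeR; adjusted p = 0.774 in edgeR and 0.0239 in DESeq2).

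The 20 scaffold and polarity genes, all tested, had a median log2 fold change of 0.19, with 17 higher and 3 lower. In 6 of the 20 both dTAG-13 libraries were above the untreated ones and in 1 both were below, against 14.4% and 11.9% of all genes. Tjp3, which encodes the ZO-3 scaffold, had 15.2 and 16.2 CPM in controls and 25.0 and 49.2 CPM after dTAG-13 (log2 fold change 1.24 ± 0.34). Patj, a scaffold protein of apical cell polarity, had a log2 fold change of 0.71 ± 0.14, and Cgn, which encodes the junction protein cingulin, one of 0.77 ± 0.28. Their edgeR adjusted p was 0.774 for Patj and 1.00 for Tjp3 and Cgn.

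Of 10 genes for partners of Cldn7 and the proteases and inhibitors around EPCAM, 9 were tested, 7 were higher and 2 lower, and the median log2 fold change was 0.90. In 6 of the 9 the dTAG-13 libraries were both above the untreated ones, against 14.4% of all genes. In 1, the adhesion receptor gene Cd44, they were both below, against 11.9%, at 17.5 and 16.8 CPM in controls and 14.5 and 9.67 CPM after dTAG-13. Epcam had 94.2 and 129.6 CPM in controls and 161 and 268 CPM after dTAG-13. Prss8, a membrane serine protease, had 11.7 and 14.8 CPM in controls and 23.4 and 41.1 CPM after dTAG-13. The log2 fold change was 0.94 ± 0.30 for Epcam and 1.29 ± 0.31 for Prss8, with an edgeR adjusted p of 1.00 and 0.844.

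**Figure D4:**
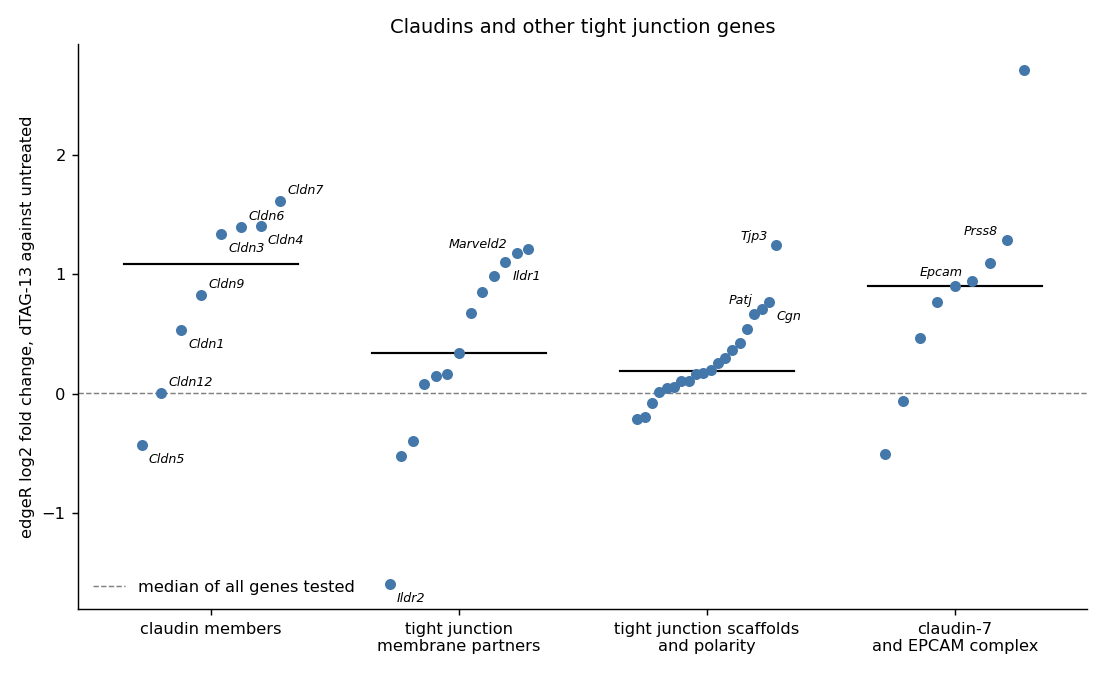
EdgeR log2 fold change of dTAG-13 against untreated (y axis) for each tested gene of 4 groups (x axis): the 8 claudin members, 13 membrane partners, 20 scaffold and polarity genes and 9 genes of the list labelled claudin-7 and EPCAM complex. That list also holds the proteases and inhibitors around EPCAM. Black lines mark group medians of 1.08, 0.34, 0.19 and 0.90, and the dashed line the median of all genes, 0.004.

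Markers of epithelial cells were also higher with dTAG-13, and edgeR called none of them. The 8 simple epithelium markers, Epcam among them, had a summed level of 547 and 752 CPM in controls and 967 and 1730 CPM after dTAG-13, with 8 of 8 higher, 7 of them without overlap, and none at 0. Over all genes 14.4% lay above without overlap and 50.9% had a log2 fold change above 0. DESeq2 called 2 of the 8, against 0.191% of all genes as higher. The 9 surface ectoderm markers, of which 8 were tested and all 8 higher, summed to 93.5 and 197 CPM in controls and 176 and 448 CPM after dTAG-13. In 3 of the 8 the groups did not overlap, and DESeq2 called 1, the transcription factor gene Dlx5, at 4.44 and 8.62 CPM in controls and 16.2 and 49.1 CPM after dTAG-13. The sum is ordered over the libraries as Cldn3 and Cldn4 are, with untreated replicate 2 above dTAG-13 replicate 1, and it consists mostly of Grhl3 and Tfap2c. Other genes of the list had another order: Gata3 had 16.9 and 1.96 CPM in controls and 34.9 and 5.77 CPM after dTAG-13, and Tfap2a had 4.74 and 1.96 CPM against 11.9 and 11.4 CPM. Of the markers of stratified epithelium, Krt5 had 0.602 and 1.24 CPM in controls and 0.767 and 3.65 CPM after dTAG-13, Trp63 had 0.527 and 0.267 CPM against 1.36 and 2.63 CPM, and Krt14 was at 0 to 0.178 CPM.

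Gut endoderm markers, 9 of 9 tested and 7 higher, summed to 402 and 290.1 CPM in controls and 451 and 387 CPM after dTAG-13, and pluripotent epiblast markers, 8 of 8 tested and higher, to 539 and 576 CPM against 666 and 916 CPM. Both dTAG-13 libraries lay above both untreated ones for 4 of the 9 and 5 of the 8, against 14.4% of all genes. They lay below for 0 in either list, against 11.9%. The median log2 fold changes were 0.28 and 0.54, and neither edgeR nor DESeq2 called any. Mesenchymal markers summed to 1917 and 1370 CPM in controls and 2377 and 1319 CPM after dTAG-13. Most of that sum was Fn1, at 1308 and 955 CPM in controls and 1816 and 1023 CPM after dTAG-13. Of the 8 mesenchymal markers, 7 (all but Fn1) had a log2 fold change below 0, but the median was only -0.08. In 1 of the 8 both dTAG-13 libraries lay below both untreated ones, against 11.9% of all genes. Notochord and node markers summed to 86.6 and 100.3 CPM against 68.7 and 106 CPM, and extraembryonic endoderm markers, of which 2 of 6 were tested and 1 was at 0 in all libraries, to 25.6 and 7.64 CPM against 35.03 and 11.1 CPM. Most of the extraembryonic sum was Cubn, at 20.5 and 5.78 CPM in controls and 29.5 and 8.57 CPM after dTAG-13. The markers of that list that were not tested had at most 10 counts in any library. Neural tube progenitor markers summed to 205 and 360 CPM in controls and 140.2 and 189 CPM after dTAG-13. All 8 of them were lower, 7 without overlap (11.9% of all genes), with a median log2 fold change of -1.97. DESeq2 called 2 of these as lower, Sox1 and Irx3, against 0.103% of all genes. Sox1 had 22.7 and 50.2 CPM in controls and 9.12 and 13.2 CPM after dTAG-13. The part of these cells in the claudin levels was not tested.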

How the data were processed

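Gene expression was measured by RNA sequencing in 4 libraries, grouped by their titles. Ribosomal RNA was depleted before library preparation, per the labels' protocols. The submitters' processing notes list HTSeq 0.12.4, STAR 2.7.6a, DESeq2 1.34.0 and fastp 0.20.1, along with mm10 and GRCm38.p6, and state no role for any of them. The sources used here do not give the annotation or the strand setting of the counting. Deposited were raw counts of reads per gene symbol, and HTSeq summary lines (24.1% to 35.7% of reads outside genes, 0.209% to 0.240% ambiguous) entered neither library sizes nor tests. Replicates of a group differed by more than sampling noise (chi-square per degree of freedom 38.2 untreated, 32.4 with dTAG-13).

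The test was edgeR 4.0.16 in R 4.3.3 (filterByExpr with a minimum count of 10 and minimum total of 15, TMM factors, robust glmQLFit, two-sided glmQLFTest, group as the only term), with Benjamini-Hochberg adjustment over all 13602 genes kept. The biological coefficient of variation was 21.7% (2 residual degrees of freedom). SE is the absolute log2 fold change over the square root of F. Differences within a number use log2 CPM with a prior count of 2. DESeq2 1.42.0 was an alternative. The test was tested on simulated data before use. No pair among the 13 claudins compared (78 pairs) shared a 50-base word in GENCODE M21 transcripts. An antisense gene overlaps Cldn3 by 40 bases there. The members, lists and naming rules were chosen with earlier results of these data known, so counts over them are descriptions. Named were all members, other claudins with at least 10 counts in a library, the 3 genes of smallest p in each tight junction list with a mean log2 CPM of at least 0, and the 5 genes nearest the members' mean profile. One gene this rule names is not reported here. Tnfrsf12a, Elp5, Mettl27, Abhd11, Cd44 and the single genes of marker lists were picked after their values were seen.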

Additional observations from a re-analysis of the deposited data

How the results depend on the processing

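Under 13 alternatives set beforehand and 4 added after the data were seen (DESeq2 without each library in turn), 106 of 134 values of the 8 members kept direction and side of the threshold, as did 257 of 287 for 17 other genes given with a fold change, whose alternatives were all added later. They were not run for genes given only as CPM (markers, Cd44, Elp5, Mettl27 and Abhd11). Values without an adjusted p in DESeq2 were counted as not called. Genes called over all genes, 0 in edgeR, were 40 with DESeq2, and leaving out 1 library gave 0 in edgeR and 12, 8, 37 and 3 in DESeq2 (leaving out untreated replicates 1 and 2 and dTAG-13 replicates 1 and 2). Members called, 0 in edgeR, were 2 with DESeq2 and, in the same order of left-out libraries, 0, 1, 3 and 0. Their median log2 fold change of 1.08 was 1.35 with at least 50 counts in 2 libraries, where 6 members were tested, and 0.34 to 1.49 when 1 library was left out (with DESeq2 0.66, 1.43, 1.48 and 0.34 in that order). Cldn12 changed sign with RLE factors (-0.00047), upper quartile factors (-0.016), library totals only (-0.0097), TMM factors without mitochondrial and the 50 highest genes (-0.011), at least 50 counts (-0.012) and DESeq2 (-0.00033). Leaving out 1 library gave -0.18 to 0.20 for Cldn12 in edgeR (in DESeq2 -0.17 without untreated replicate 1 and -0.022 when dTAG-13 replicate 2 was left out), -1.37 to 0.54 for Cldn5 in edgeR (0.55 and 0.12 in DESeq2 when these libraries were left out), -0.64 to 0.31 for Cldn11 in edgeR (-0.65 to 0.32 in DESeq2) and -0.65 to 0.10 for Zeb2 in edgeR (0.091 without untreated replicate 2 in DESeq2). The cause of these changes was not tested.

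The labels do not say that a replicate number marks a shared batch or day, so the fit with the replicate number as a block was an alternative. Deviations from the group mean in same-numbered libraries had a correlation of 0.63 across 13602 genes, which are not independent replicates. With the replicate block edgeR called 636 genes (4.68%; 395 higher and 241 lower) and DESeq2 164 (1.21%; 117 higher and 47 lower). Of the 8 members 4 were called with the replicate block by either tool, all higher: Cldn3, Cldn4, Cldn6 and Cldn7, with edgeR log2 fold changes of 1.29, 1.28, 1.34 and 1.55 (adjusted p from 7.13e-17 to 1.43e-06). Of the 17 other genes the replicate block gave 13 calls in edgeR and 10 in DESeq2, Cldn8, Marveld2, Epcam and Ildr2 among them in both. Depth limits Cldn1, Cldn10 and Cldn23, where libraries differ by a few counts.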

Other observations

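Outside the claudins, the 5 genes whose pattern over the 4 libraries lay nearest to the members' mean (Euclidean distance of centred log2 CPM, among 12427 genes with a mean log2 CPM of at least 1) were S100a11, Myo1e, Elf3, Slc19a3 and Klf5, at distances of 0.0665 to 0.114 where the median gene lay at 0.940. As the smallest distances were picked, that they lie below the median follows from the choice. Elf3 and Klf5 encode transcription factors of epithelia, S100a11 a calcium-binding protein, Myo1e a motor protein of the cell cortex and Slc19a3 a thiamine transporter. Klf5 had 14.7 and 19.0 CPM in controls and 25.1 and 37.8 CPM after dTAG-13, and Elf3 had 18.1 and 20.6 CPM against 28.1 and 39.5 CPM. Slc19a3 was the rarest of the 5, with 1.88 and 2.49 CPM in controls and 3.41 and 4.50 CPM after dTAG-13. That mean pattern itself separates the groups (-0.55 and -0.22 in controls, 0.13 and 0.65 after dTAG-13), so the separation in these 5 genes follows from how they were chosen. Their edgeR log2 fold changes were 0.74 to 0.90. The pattern rests on 4 libraries, so the likeness is a description.

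Among genes tested, those nearest to the other claudins with the CACCTG motif did not separate the groups. Elp5 lies 0.336 kb beyond Cldn7 and had 74.5 and 88.8 CPM in controls and 76.4 and 79.1 CPM after dTAG-13. Mettl27, 2.48 kb from Cldn4, had 19.7 and 18.4 CPM in controls and 18.0 and 24.3 CPM after dTAG-13. Abhd11, 21.7 kb from Cldn3, had 22.7 and 23.8 CPM against 18.3 and 30.3 CPM. The groups overlapped for all 3.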
